A study of Mus musculus with 8 samples.

Results

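The 9 genes described here encode the signalling chains of the B cell receptor and the proteins that act directly beside it: Cd79a and Cd79b, Cd22, the kinases Lyn, Blk and Btk, the adaptors Blnk and Bank1, and the phospholipase Plcg2. They were taken by name, as a list of receptor complex, coreceptor, kinase and adaptor genes, and all 9 were found among the 35944 genes of the table. RNA had been taken from buffy coat, the blood fraction that holds leukocytes and platelets, in mice exposed to PM2.5 (fine airborne particulate matter, 4 libraries, replicates 9, 17, 18 and 21) or given PBS (phosphate-buffered saline, 4 libraries, replicates 4, 10, 12 and 16) for 24 weeks. The sources used here do not give strain, genotype, sex, age, dose or route, and name no allele or other treatment. Whether every library is 1 animal is not stated either, so the p-values describe how far these samples scatter, and that scatter may be technical.

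A B cell receptor is a membrane immunoglobulin paired with the Cd79a and Cd79b chains, whose cytoplasmic tails are phosphorylated by Src family kinases when antigen binds. The kinase Syk then docks on the tails, Blnk assembles Btk with Plcg2, and the lipid products of Plcg2 release calcium and activate protein kinase C. Cd22 is a sialic acid-binding coreceptor that recruits phosphatases and damps the signal. Cd79a, Cd79b, Blk, Bank1 and Cd22 are made mainly by B cells, while Lyn, Btk and Plcg2 are also made by myeloid cells and platelets, so in whole buffy coat their RNA has several sources.

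Libraries held 72081019 to 89032794 expected counts (estimated counts, which need not be whole), and haemoglobin transcripts took 86.7% to 88.6% of them with PM2.5 and 82.3% to 87.9% with PBS. The remaining genes shared 9615115 to 12714432 counts per library, and the 9 genes together made up 0.0301% to 0.0502% of those with PM2.5 and 0.0310% to 0.0625% with PBS. PM2.5 replicates 17 and 18 stood apart in holding transcripts of neurons and astrocytes. Camk2a had 78 and 97 counts there and 0 to 4 elsewhere, and Slc1a2 had 55 and 59 counts there and 0 to 10 elsewhere. Mog, a myelin gene, was at 0 in all 8 libraries. PBS replicate 12 had the haemoglobin share nearest to theirs, 87.9%.

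Upstream sequence is shown for Bank1, Cd79a and Plcg2, the 3 members for which it was found outside the GENCODE M21 gene. The windows of Cd22, Btk and Blnk lay inside the gene and are not shown. Upstream sequences were found for 6 of the 9 members in RefSeq's promoters (build GRCm38.p6), the exceptions being Cd79b, Lyn and Blk. Capitals mark matches, on either strand, to the octamer ATGCAAAT, to CCCNNGGG, the core bound by Ebf factors, and to GAGGAA, a core bound by PU.1. The sequences are, in order, chr3:136326067-136326316 (minus strand), chr7:24897247-24897380 (plus strand) and chr8:117498025-117498274 (plus strand), each read 5′ to 3′.
Bank1: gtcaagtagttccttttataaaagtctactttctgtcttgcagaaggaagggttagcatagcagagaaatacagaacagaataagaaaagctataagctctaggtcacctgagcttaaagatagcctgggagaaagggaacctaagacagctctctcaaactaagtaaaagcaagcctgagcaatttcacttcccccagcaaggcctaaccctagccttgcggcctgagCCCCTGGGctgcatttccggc
Cd79a: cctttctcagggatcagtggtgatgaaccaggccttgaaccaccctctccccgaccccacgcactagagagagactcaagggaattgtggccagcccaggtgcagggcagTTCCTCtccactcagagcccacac
Plcg2: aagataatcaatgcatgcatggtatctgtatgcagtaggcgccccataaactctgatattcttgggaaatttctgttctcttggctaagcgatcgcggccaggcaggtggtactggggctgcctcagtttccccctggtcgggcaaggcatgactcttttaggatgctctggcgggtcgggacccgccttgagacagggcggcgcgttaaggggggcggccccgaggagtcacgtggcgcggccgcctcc
Over the full 250 bases before the RefSeq start, Bank1 and Cd22 each held 1 match to CCCNNGGG, which 11.8% of all 32851 promoters hold. In Bank1 the match began 21 bases before the start. Blnk held 1 octamer, read as ATTTGCAT, a motif in 1.60% of promoters, and Cd79a held 1 match to GAGGAA, a motif in 23.3% of promoters. Btk and Plcg2 held none of the 3 motifs in this window. Only these exact letters were searched, so a variant of a motif would be missed, and a missing match does not show that a factor cannot bind.

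Of the 9 genes, 2 were lower with PM2.5 and none was higher. Blk, a Src family kinase of B cells, and Bank1, an adaptor that links the receptor to calcium release, each fell by between 1.5-fold and 2-fold. The other 7 did not pass the test, and they did not share a direction: the receptor chains, Cd22 and Blnk had negative log2 changes, Btk lay near 0, and Lyn and Plcg2 had positive ones. With edgeR's quasi-likelihood test and Benjamini-Hochberg adjustment over 10361 genes, 2 of the 9 were lower, where 1.14% of all genes tested were lower, 0.463% higher and 1.6% called in either direction. The median log2 change of the 9 was -0.27, against 0.04 over all genes tested. In bulk RNA, fewer cells of a type and less RNA per cell cannot be told apart.

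Blk (ENSMUSG00000014453.4, chromosome 14, 63372836 to 63417037, minus strand, GRCm38) stood at 1.64, 2.73, 2.20 and 2.32 CPM (counts scaled by TMM to a common library size) in PM2.5 replicates 9, 17, 18 and 21. It was at 3.98, 4.49, 2.62 and 4.40 CPM in PBS replicates 4, 10, 12 and 16. The groups overlapped through PBS replicate 12 alone, which lay just under PM2.5 replicate 17. The PM2.5 mean was 2.22 ± 0.448 CPM and the PBS mean 3.87 ± 0.863 (SD, n = 4 each), which gave -0.81 on the log2 scale (SE 0.193, adjusted p = 0.0445).

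Bank1 (ENSMUSG00000037922.13, chromosome 3, 136053363 to 136326066, minus strand) showed the same arrangement of libraries. Its level was 5.59, 5.13, 4.35 and 6.78 CPM in PM2.5 replicates 9, 17, 18 and 21, and 10.4, 11.0, 6.31 and 9.94 CPM in PBS replicates 4, 10, 12 and 16. PBS replicate 12 again lay within the PM2.5 range, and the other 3 PBS libraries lay above it. The log2 change was -0.79 (SE 0.194, adjusted p = 0.0487; means 5.46 ± 1.02 and 9.43 ± 2.13 CPM, SD, n = 4 each).

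Both calls sat close to the threshold. Both were also made with library totals, with haemoglobin removed, with DESeq2, without a filter on low counts and with a minimum count of 50, settings that called 4.66%, 2.18%, 3.6%, 3.46% and 2.71% of all genes. Leaving out any 1 library other than PBS replicate 12 ended both (Blk adjusted p = 0.0556 to 0.146, Bank1 0.0577 to 0.166), and without PBS replicate 12 they were at -0.95 (adjusted p = 0.0179) and -0.93 (adjusted p = 0.0196). Of all genes, 1.5%, 0.515%, 0.645% and 0.799% were called without PM2.5 replicates 9, 17, 18 and 21 in turn, and 0.83%, 0.294%, 1.54% and 1.82% without PBS replicates 4, 10, 12 and 16. Without PM2.5 replicates 17 and 18 together, where 0.0718% of all genes were called, Blk was at -0.97 (adjusted p = 0.155) and Bank1 at -0.60 (adjusted p = 0.371). With the erythroid marker level as a covariate, Blk was at -0.80 (adjusted p = 0.416) and Bank1 at -0.37 (adjusted p = 0.592).

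**Figure D1:**
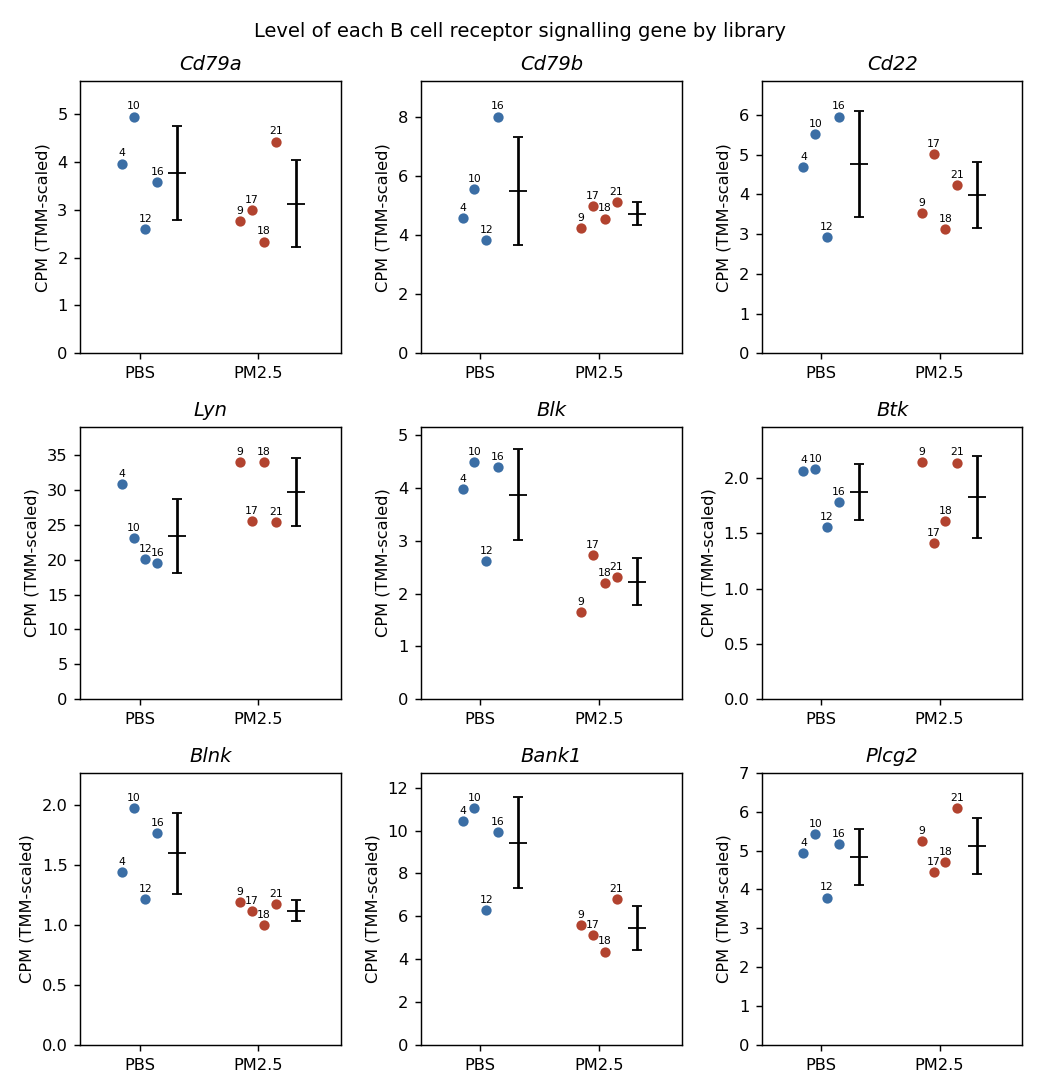
Level of each of the 9 genes in CPM of the TMM-scaled library (vertical axis, from 0) in the 4 PBS and 4 PM2.5 libraries. Points are libraries with their replicate numbers and bars are mean ± SD. For Blk and Bank1, PBS replicate 12 lay within the PM2.5 range and the other 3 PBS libraries lay above it. Blnk was lower in all 4 PM2.5 libraries, and the groups overlapped in the other panels.

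Of the receptor chains, Cd79a (chromosome 7, 24897381 to 24902197, plus strand) was at 2.76, 2.99, 2.33 and 4.42 CPM in PM2.5 replicates 9, 17, 18 and 21 and at 3.96, 4.94, 2.59 and 3.57 CPM in the PBS libraries in the order 4, 10, 12 and 16. Its log2 change was -0.27 (SE 0.211, adjusted p = 0.51). Cd79b (chromosome 11, 106311341 to 106314762, minus strand), its disulphide-linked partner, ranged from 4.24 to 5.11 CPM with PM2.5 and from 3.82 to 8.0 CPM with PBS, with a log2 change of -0.22 (SE 0.197, adjusted p = 0.566). The highest Cd79b value was that of PBS replicate 16, and without that library the log2 change was 0.0084.

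The partners kept a similar ratio in both groups. Counts of Cd79b over Cd79a were 1.16 to 1.95 with PM2.5 and 1.12 to 2.24 with PBS. The mean log2 ratio differed by 0.11 (0.63 ± 0.315 and 0.52 ± 0.463, SD, n = 4 in each group), which a two-sided exact permutation test put at p = 0.686 (0.686 after adjustment over 2 ratios). A ratio within a library does not depend on how libraries are scaled. Cd22 (chromosome 7, 30865402 to 30880342, minus strand) ranged from 3.13 to 5.02 CPM with PM2.5 and from 2.93 to 5.96 CPM with PBS, and its log2 change of -0.27 (SE 0.206) did not pass (adjusted p = 0.497).

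Lyn (chromosome 4, 3678115 to 3813122, plus strand), the Src family kinase that both starts the signal and phosphorylates the inhibitory tails of Cd22, pointed the other way from Blk. It was at 34.0, 25.5, 34.0 and 25.4 CPM in PM2.5 replicates 9, 17, 18 and 21 and at 30.9, 23.1, 20.1 and 19.5 CPM in PBS replicates 4, 10, 12 and 16. PBS replicate 4 lay inside the PM2.5 range and the other 3 PBS libraries lay below it. The log2 change of 0.34 (SE 0.200) did not pass (adjusted p = 0.364), and its sign depended on the scaling, at -0.25 with library totals.

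Counts of the 2 Src family kinases were compared within libraries. Blk is made mainly by B cells and Lyn also by myeloid cells and platelets, so the mix of cells enters this ratio too. The part of that mix was not tested. Lyn counts were 20.6, 9.33, 15.4 and 11.0 times those of Blk in PM2.5 replicates 9, 17, 18 and 21 and 7.76, 5.15, 7.66 and 4.43 times in PBS replicates 4, 10, 12 and 16. Every PM2.5 library lay above every PBS library. The mean log2 ratio was 3.75 ± 0.511 in the PM2.5 libraries and 2.60 ± 0.409 in the PBS libraries (SD, n = 4 each), a difference of 1.14, or 2.21-fold. The exact permutation p was 0.0286, two-sided, the smallest that 70 arrangements allow, and 0.0571 after adjustment over the 2 ratios. This ratio was chosen with the earlier result on Blk known, so it is not independent evidence that Blk differed. Without PBS replicate 10 or 16 the p was 0.0571, with differences of 1.07 and 0.99.

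Btk (chromosome X, 134542336 to 134583570, minus strand), the Tec family kinase that activates Plcg2, was at 1.41 to 2.14 CPM with PM2.5 and 1.55 to 2.08 CPM with PBS, with a log2 change of -0.03 (SE 0.180, adjusted p = 0.946). Plcg2 (chromosome 8, 117498291 to 117635142, plus strand) was at 4.45 to 6.09 CPM with PM2.5 and 3.79 to 5.42 CPM with PBS, with a log2 change of 0.09 (SE 0.162, adjusted p = 0.806). The PBS range of Btk lay inside its PM2.5 range, and the ranges of Plcg2 overlapped in part.

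Blnk (chromosome 19, 40928927 to 40994535, minus strand), the scaffold that brings Btk to Plcg2, was the least abundant member, with 54 to 212 counts per library. It was at 1.19, 1.12, 1.00 and 1.18 CPM in PM2.5 replicates 9, 17, 18 and 21 and at 1.45, 1.98, 1.21 and 1.77 CPM in PBS replicates 4, 10, 12 and 16. It was the 1 member whose groups did not overlap, an arrangement with PM2.5 below PBS that 6.64% of all genes tested also had (3.01% had PM2.5 above, 9.65% either), and the gap between PM2.5 replicate 9 and PBS replicate 12 was narrow. The log2 change of -0.51 (SE 0.189) did not pass (adjusted p = 0.176).

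Per transcript length, on the authors' FPKM scale, Lyn was the most abundant member, at 8.10 ± 2.85 with PM2.5 and 9.84 ± 4.06 with PBS. Cd79b followed at 4.39 ± 1.19 and 7.69 ± 3.24, and it exceeded Lyn in PBS replicate 16 only. Cd79b was above Cd79a in 8 of 8 libraries, by 1.43-fold to 2.88-fold. Cd79a (2.33 ± 1.12 with PM2.5, 4.19 ± 1.73 with PBS) and Bank1 (1.66 ± 0.725 and 4.43 ± 1.74) could not be put in order, Cd79a being higher in 5 of 8 libraries. Blk and Cd22 could not either, each being higher in 4 of 8. Plcg2 exceeded Btk in 6 of 8 libraries and Blnk was the lowest, below Btk in 7 of 8. These FPKM values are the authors' own, summed over a gene's transcripts, and every SD is over n = 4. Most genes were lower with PM2.5 on the FPKM scale. In a limma fit on log2(FPKM + 1), 91.8% of 3658 genes had negative log2 changes, with a median of -0.28. The FPKM means therefore serve to order the members and are not read as changes between groups.

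Each level was also set against the B cells' own RNA, as counts per 1000 summed counts of 15 other B cell markers. That sum itself was 47.8 to 54.0 CPM with PM2.5 and 54.8 to 82.6 CPM with PBS, so the groups did not overlap, and none of the 15 markers was at 0 in all libraries. Of the 14 markers that passed the filter on low counts, all 14 had negative log2 changes with a median of -0.40. The test called 2 of them lower, Ebf1 and Pou2af1. Over all genes tested, 45.65% had negative log2 changes and 1.14% were called lower. Per 1000 B cell marker counts, Blnk was nearly constant, at 20.9 to 22.6 with PM2.5 and 19.9 to 23.9 with PBS. Its coefficient of variation was 6.02% over 8 libraries, where the other members had 15.5% to 35.1%.

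Plcg2 was at 99.2, 87.0, 98.3 and 113 per 1000 B cell marker counts in PM2.5 replicates 9, 17, 18 and 21 and at 67.8, 65.6, 69.2 and 68.8 in PBS replicates 4, 10, 12 and 16. Lyn was at 471 to 711 with PM2.5 and at 259 to 426 with PBS. Neither gene's groups overlapped, an arrangement with PM2.5 above that 17.8% of all genes tested had on this scale, where 0.579% had PM2.5 below. When libraries were scaled to the B cell marker sum, Lyn was at 0.80 (adjusted p = 0.0439) and Plcg2 at 0.55 (adjusted p = 0.0456), and both passed, as 17.5% of all genes did in that direction and 0.203% in the other (17.7% in all). The median of all genes was then 0.50, so Plcg2 lay 0.06 and Lyn 0.31 above it. Btk was at 0.43 (adjusted p = 0.0996), and Blk and Bank1 at -0.32 (adjusted p = 0.212) and -0.31 (adjusted p = 0.223), no longer past the test.

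**Figure D2:**
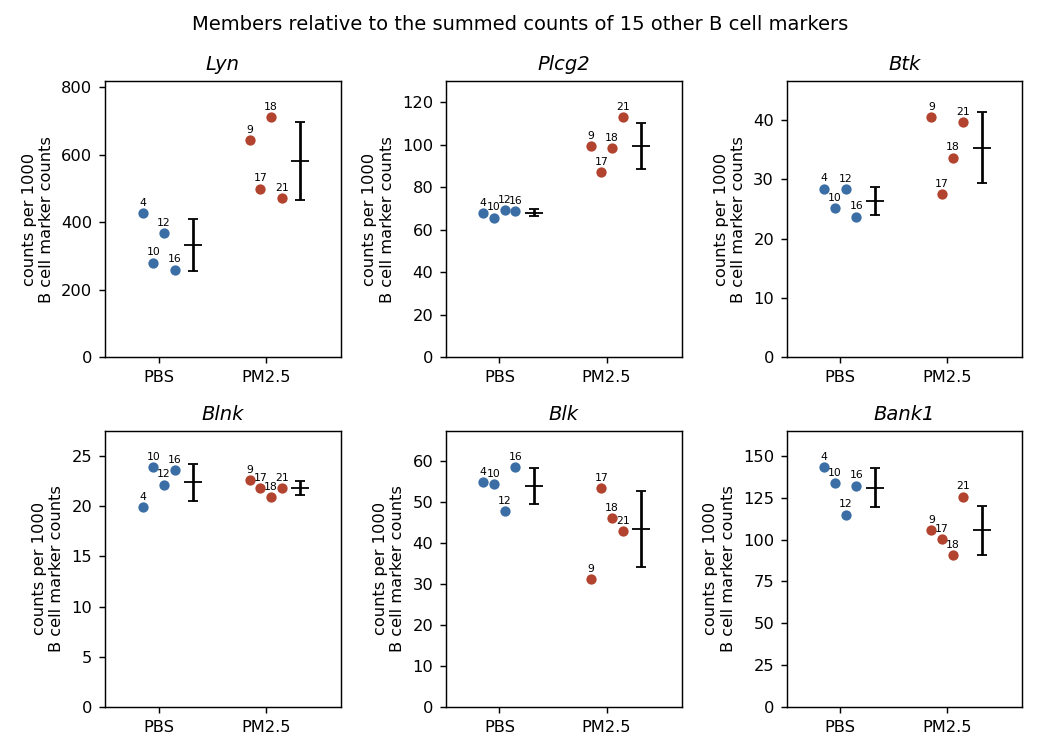
Counts of 6 members per 1000 summed counts of 15 other B cell markers (vertical axis, from 0) in each library, with mean ± SD. Plcg2 lies at 65.6 to 69.2 in the PBS libraries and at 87.0 to 113 in the PM2.5 libraries, while Blnk is at a similar value in all 8. The marker sum is itself lower with PM2.5, and 17.8% of all genes tested lie above without overlap on this scale.

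Other cells of the buffy coat also make Lyn, Btk or Plcg2, and of their marker sums that of neutrophils did not overlap between the groups, while those of monocytes and platelets did. The 10 neutrophil markers summed to 28.2 to 54.9 CPM with PM2.5 and 13.8 to 27.3 CPM with PBS, a narrow gap. Of the 7 tested 4 were higher. The summed level of 10 monocyte markers was 122 to 186 CPM with PM2.5 and 93.3 to 140 CPM with PBS. Most of it was Lyz2, which averaged 82.4 CPM over the 8 libraries, so the sum says little about the other markers. Of the 9 tested 2 were higher, Ccr2 (1.99) and Ms4a6c (1.04), and 2 had negative log2 changes. Over all genes tested, 0.463% were higher. The 9 platelet markers summed to 496 to 827 CPM with PM2.5 and 414 to 738 CPM with PBS, and none passed. Plasmacytoid dendritic cells also make Blnk, and their 6 markers summed to 2.09 to 2.48 CPM with PM2.5 and 2.47 to 4.03 CPM with PBS, with Cox6a2 at 0 in all libraries. Most of that sum was Tcf4, which averaged 2.19 CPM over the 8 libraries. The 3 markers tested did not share a direction: Tcf4 was at -0.72, Ccr9 at -0.40 and Bst2 at 0.47, and none passed. Of these markers, none of the neutrophil, monocyte or platelet lists was at 0 in all libraries. Their part in the levels of Lyn, Btk and Plcg2 was not tested.

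The way libraries were scaled moved all 9 values by a similar amount. TMM, which assumes that most genes do not change, set the median over all genes tested to a log2 change of 0.04, while scaling to library totals put it at -0.52. Relative to that median, library totals gave Blk -0.93, Bank1 -0.84, Blnk -0.57, Cd22 -0.37, Cd79a -0.32, Cd79b -0.30, Btk -0.05, Plcg2 0.04 and Lyn 0.27. The order of the members was thus nearly the same under both scalings, with Blk and Bank1 lowest and Lyn highest.

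**Figure D3:**
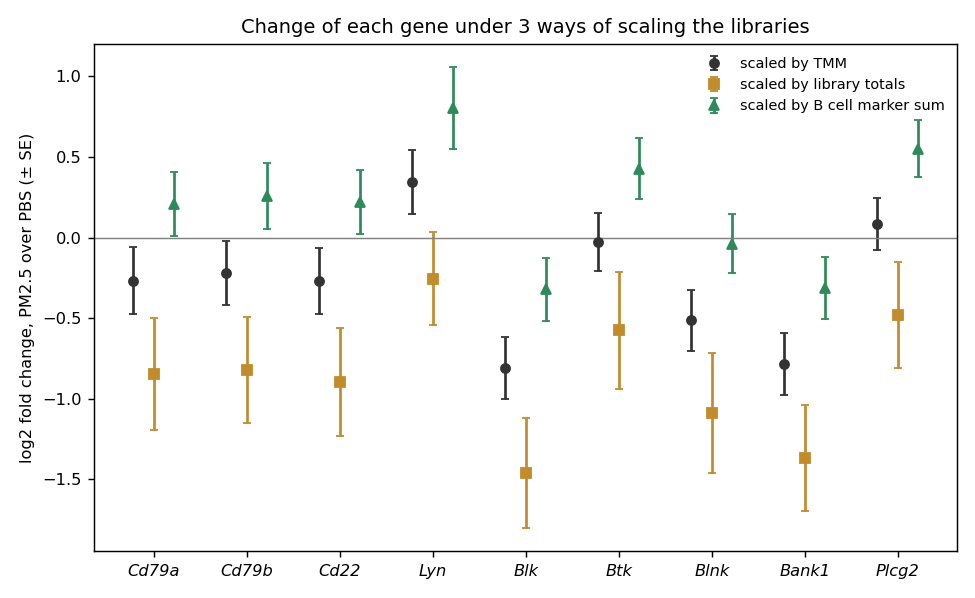
Log2 fold change of each gene, PM2.5 over PBS, with its SE (vertical axis), from the same edgeR test with libraries scaled by TMM, by their totals, or by the B cell marker sum. The 3 scalings shift all genes up or down together, and Blk and Bank1 are the lowest and Lyn the highest under each.

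Counts were also given per transcript, and 40 transcripts of the 9 genes were in the table. Cd79a and Plcg2 had 1 each. Among the 17 transcripts that held at least 5% of the counts of a gene with several, 1 had groups that did not overlap. Over all genes with at least 50 counts in every library, 6.1% of such transcripts did. A count of 1 in 17 is near that share, so it is not read as particular to the members. The transcript was Bank1-204, annotated as retaining an intron. It held 18.4%, 21.6%, 20.9% and 21.8% of Bank1 counts in PM2.5 replicates 9, 17, 18 and 21 and 29.8%, 24.5%, 29.5% and 32.8% in PBS replicates 4, 10, 12 and 16. It was named after its values were seen.

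In CPM, Bank1-204 was at 1.13 ± 0.245 with PM2.5 and 2.74 ± 0.628 with PBS, and the main coding transcript at 3.98 ± 0.762 and 6.16 ± 1.63 (SD, n = 4 each). That coding transcript overlapped between the groups, at 3.29 to 5.07 and 3.98 to 7.94 CPM. Over the whole table, transcripts annotated as retained introns took 1.74% to 2.10% of counts other than haemoglobin with PM2.5 and 2.22% to 2.90% with PBS, without overlap. Of 1854 such transcripts at 5% or more of their gene, 10.5% lay lower with PM2.5 without overlap and 1.19% lay higher. Whether that general shift sets the share of Bank1-204 was not tested.

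**Figure D4:**
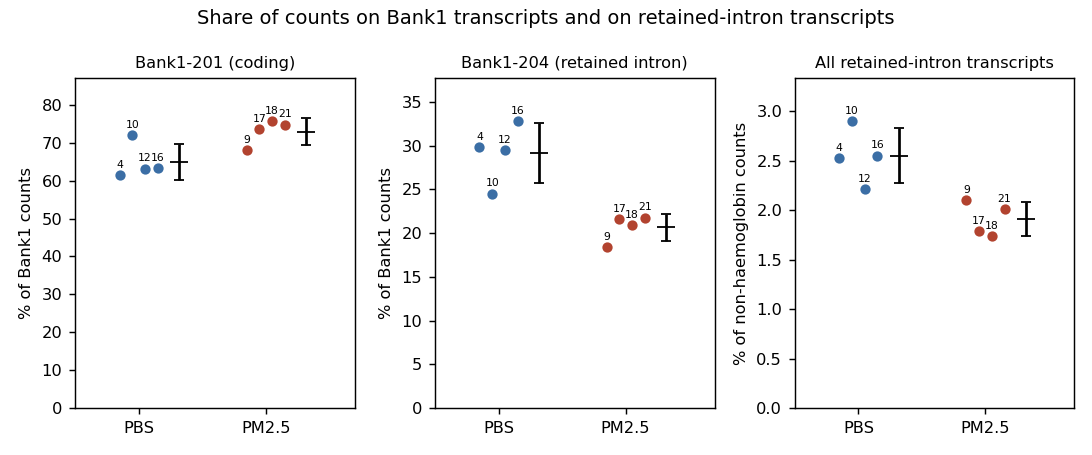
Share of Bank1 counts on its main coding transcript and on its retained-intron transcript, and share of all non-haemoglobin counts on retained-intron transcripts (vertical axes in percent, from 0), by library with mean ± SD. Bank1-204 is at 18.4% to 21.8% with PM2.5 and 24.5% to 32.8% with PBS, and the share over all genes is lower with PM2.5 as well.

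The 2 main coding transcripts of Lyn did not separate the groups. The larger held 66.7% to 76.3% of Lyn counts with PM2.5 and 58.4% to 70.5% with PBS, and the smaller held 29.9% ± 4.42 and 34.5% ± 5.93 (SD, n = 4 each). Blk counts lay almost wholly on its coding transcript, at 89.1% to 97.9% in PM2.5 libraries and 91.5% to 96.3% in PBS libraries. Estimates for Cd22 and Blnk were unsteady between libraries of one group: with PM2.5 alone, the leading Cd22 transcript took from 6.41% to 63.8% of Cd22 counts and the leading Blnk transcript from 0% to 77.7% of Blnk counts. No comparison was made of those.

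How far the members varied together depended on the scaling. Over the 8 libraries, on the log2 scale of TMM-scaled CPM, Blnk and Bank1 had Pearson r = 0.92, Blk and Bank1 0.86 and Blk and Blnk 0.85. Cd79a and Cd79b had only 0.46, and Lyn had negative r with Cd79a (-0.29), Cd22 (-0.38), Bank1 (-0.44), Cd79b (-0.48), Blnk (-0.52) and Blk (-0.55). With each group centred on its own mean, Bank1 and Plcg2 had r = 0.93 and Lyn and Blk -0.14. These are descriptions over 8 libraries that share their scaling: with library totals in its place every pair of members had a positive r, from 0.55 for Lyn and Blk to 0.98 for Blnk and Bank1, and Cd79a and Cd79b had 0.88.

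Among 1699 other genes at 5 CPM or more, those most like each member over the 8 libraries were found. Being the largest of 1699 over only 8 libraries, such r values can be high between unrelated genes. Differences between the groups and the shared scaling also enter them, so no shared function is read from them. The genes most like Bank1 were the MHC class II genes H2-Aa (r = 0.996) and H2-Ab1 (r = 0.987), which present antigen on B cells and other cells. Those most like Blk were Prkcb, the protein kinase C of B cell activation (r = 0.96), and B4galnt1 (r = 0.93). Blnk was most like Arhgef1 (r = 0.97) and Slc38a1 (r = 0.96). Lyn was most like Ormdl3 and Pcmt1 (r = 0.98 each), Plcg2 like Grb2 (r = 0.92), an adaptor of receptor signalling, and Esyt1 (r = 0.88), and Btk like Arhgdia (r = 0.93) and Pitpna (r = 0.91). For the receptor chains the closest were Eif4a1 (r = 0.94) and Helz2 (r = 0.87) for Cd79a and Polr2a (r = 0.87) and Smap2 (r = 0.83) for Cd79b, and Cd22 was closest to Add3 (r = 0.91) and Map3k1 (r = 0.89). None of these 18 genes passed the test between groups.

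Further genes of the pathway were read from 5 lists holding 75 genes, of which 74 were tested. With PM2.5, 2 were lower and none was higher, which is 2.70% of the 74. Of all genes tested, 1.14% were lower and 1.6% were called in either direction. The median log2 change of the 74 was -0.08. With only 2 genes called, no position in the pathway is read from them. Cblb, a ubiquitin ligase that damps antigen receptor signals, was at 4.77 ± 0.389 CPM in PM2.5 libraries and 8.68 ± 1.79 in PBS libraries (SD, n = 4 each), or -0.86 on the log2 scale (SE 0.170, adjusted p = 0.0174). Malt1, the protease that links receptor signals to NF-kB, was at 7.25 ± 0.663 and 12.7 ± 2.86 CPM (SD, n = 4 each), or -0.81 on the log2 scale (SE 0.180, adjusted p = 0.0337). Both are also made by T cells and other leukocytes.

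No gene of the other 3 lists passed. Of 7 coreceptor and surface genes, Ly86, a surface partner of Cd180, had groups that did not overlap (0.902 ± 0.184 CPM with PM2.5, 1.34 ± 0.152 in PBS libraries, SD, n = 4 each) and a log2 change of -0.57 (adjusted p = 0.159). Cd81, a tetraspanin of the B cell surface, was at 0.42 (adjusted p = 0.297). Of 15 inhibitors and Fc receptor-like genes tested, Fcrl1, of the receptor-like genes, was at -0.93 (adjusted p = 0.0656). Siglecg, a sialic acid-binding inhibitor of B cells, was at -0.53 (adjusted p = 0.169) and Pirb, an inhibitory receptor of B and myeloid cells, at 0.70 (adjusted p = 0.11). The 6 immunoglobulin constant genes all had negative log2 changes with a median of -0.40, among them Ighd (-0.47, adjusted p = 0.231), Igkc (-0.42, adjusted p = 0.236) and Ighm (-0.38, adjusted p = 0.303). The kinase and adaptor list had a median of 0.04 over 20 genes and the distal calcium, NF-kB and Ras list -0.07 over 26.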

How the data were processed

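Per the labels' protocols, cDNA was random-primed from total RNA and its second strand was marked with dUTP. Tools named in the submitters' processing notes are HISAT2 2.0.1, cutadapt 1.9.1 and bcl2fastq 2.17.1.14, with build GRCm38. The counting tool, and whether it used strand, is not given in the sources used here. The deposited expected counts are estimated counts per Ensembl transcript without normalization, and the FPKM columns, per the file headers, hold the authors' values per transcript length and library size. Of 118783 transcripts, 116710 matched GENCODE M21 and were summed per gene. The 2073 others held 0.0266% to 0.0532% of counts.

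Counts were rounded and tested with edgeR 4.0.16 (R 4.3.3; quasi-likelihood, TMM, filterByExpr minimum count 10 and minimum total 15, adjusted p threshold 0.05). The SE is the log2 change over the square root of F. Ratios used a pseudocount of 0.5 counts. Alternatives included DESeq2 1.42.0 and limma 3.58.1 on log2(FPKM + 1). The members, lists and tests were chosen with earlier results of these data known. Named pathway genes passed the test, or were up to 3 per list by smallest p where none did. One gene that this rule names is not reported here. The 2 genes most like each member were taken by Pearson r of log2(CPM + 0.5). On simulated data for this comparison (10361 genes), the procedure recovered 14.9% of 1.5-fold, 82.1% of 2-fold and 100% of 4-fold changes, with 3 false calls. The simulated counts followed the fitted means, library sizes and dispersions, and the least abundant genes were not among those changed. Traits of single libraries were not simulated, so recovery in the real libraries may be lower. No 2 libraries agreed within sampling noise.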

Additional observations from a re-analysis of the deposited data

Results flagged for a closer look

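Each of the 9 genes and both ratios was examined in both groups of 4 libraries for a library far from its group. In none of these 22 groups did the gap of the highest or lowest library, as a share of the range, exceed Dixon's critical value of 0.829, where chance would flag about 1 group in 20.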

How the results depend on the processing

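Blk, Bank1 and Blnk had negative log2 changes in every alternative run (Blk -1.46 to -0.32, Bank1 -1.37 to -0.31, Blnk -1.09 to -0.04; Blnk was under the FPKM filter). Blk and Bank1 each passed in 6 of 18 alternatives. The number of members called was 0 with both limma fits, the erythroid covariate, and PM2.5 replicates 17 and 18 left out, and 2 with the B cell marker scaling, there Lyn and Plcg2 and both higher. Leaving out single libraries gave 0 to 2. Over all genes, 166 were called, against 483 with library totals, 373 with DESeq2, 624 with no filter, 0 with limma on log2(FPKM + 1) (716 at an unadjusted p under 0.05) or log2(FPKM + 0.1) (695), 0 with the erythroid covariate (1077), 1835 with B cell marker scaling, 8 without PM2.5 replicates 17 and 18, and 31 to 192 without single libraries. The cause of these shifts was not tested. The split of calls was 8 higher and 475 lower with library totals and 1814 higher and 21 lower with B cell marker scaling.

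Signs turned as follows. With B cell marker scaling Cd79a was at 0.21, Cd79b 0.26, Cd22 0.22 and Btk 0.43. With the erythroid covariate Cd79a was at 0.15 and Btk at 0.35. With library totals Lyn was at -0.25 and Plcg2 at -0.48. With limma Lyn was at -0.22 and Plcg2 at -0.27 (pseudocount 1), or -0.25 and -0.45 (pseudocount 0.1). Plcg2 was at -0.26 with haemoglobin removed and Btk at 0.20 without PM2.5 replicates 17 and 18. Over single libraries left out, Btk ranged from -0.14 to 0.074, Plcg2 from -0.010 to 0.15 and Cd79b from -0.35 to 0.0084. The ratio of Cd79b to Cd79a differed by -0.012 to 0.32 in that way and by -0.11 without PM2.5 replicates 17 and 18. The ratio of Lyn to Blk differed by 0.94 to 1.32, and by 1.31 without replicates 17 and 18, where the smallest exact p possible is 0.0667. No paired analysis was possible because the groups share no replicate numbers.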
